A study of Mus musculus with 2 samples.

Results

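The proteasome subunit genes are described here in liver RNA of mice 30 h after acetaminophen (APAP), with and without AZD7986, an inhibitor of the protease cathepsin C. Members were the protein-coding rows whose symbol begins with Psm, a letter from a to g and a digit, a rule that uses no measured value. It found 50 of the 24377 genes in the table, and another 4 rows with such a symbol are processed pseudogenes. Each group was 1 pool of RNA from 8 male C57BL/6 mice (C57BL/6J in the study's methods) aged 9 to 11 weeks. All mice were fasted for 10 h and then received 300 mg/kg APAP intraperitoneally. Mice of the AZD7986 pool were given 5 mg/kg of the inhibitor by mouth 4 times, at 12 h before APAP, with it, and 12 h and 24 h after it. Mice of the vehicle pool received the solvent in its place. Livers were perfused before RNA was taken. Both pools therefore share the APAP dose, and mice without APAP were not analysed here. A pool gives 1 library with no replicate, so no test between the groups is possible and every interval below covers counting error alone. In whole liver, fewer cells of a type and less RNA per cell cannot be told apart.

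The 26S proteasome degrades proteins that carry ubiquitin chains. Its 20S core is a barrel in which outer alpha rings gate the entrance and inner beta rings carry the catalytic sites, and a 19S particle of ATPases and non-ATPase subunits binds, unfolds and feeds in the substrate. Interferon-γ induces alternative catalytic subunits, which form the immunoproteasome, and the PA28 activator, and both are known for their part in making peptides for class I MHC molecules. Hepatocytes contain mainly the constitutive core, while leukocytes are rich in immunoproteasome. When proteasome activity is short, the transcription factor NRF1 (Nfe2l1) is known to raise the transcription of subunit genes.

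The vehicle library held 7657855 counts and the AZD7986 library 6700838. Counts come from 3′ tags with duplicates removed, so that a transcript gives about 1 count whatever its length. Normalized counts are counts divided by a size factor of 1.10 (vehicle) or 0.910 (AZD7986). Each ratio below divides the AZD7986 value by the vehicle value and carries its exact 95% counting interval in brackets. Pairs of values are given in the order vehicle, AZD7986. All 11 hepatocyte markers were counted, with Alb the highest at 243092 and 239217 normalized counts, and so were all 12 pan-leukocyte markers.

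Proteasome genes tended to lie slightly above the median gene in the AZD7986 pool, and the differences were small. Of the 50 members, 46 reached a summed count of 20 (284 to 4884), while Psma8, Psmb7, Psmb11 and Psmc3ip did not. The median log2 ratio of the 46 was 0.17, against −0.02 over the 13523 genes that reached 20 and 0.01 over the 8894 that reached 100. Ratios ran from 0.805 for Psmb2 to 1.64 for Psmg3, and 33 of the 46 were above 1. A gene was counted as higher or lower where it was at least 25% above or 20% below the vehicle value and its interval excluded 1. By that rule 10 members (21.7%) were higher and 0 were lower. Of the 13523 genes, 13.4% were higher and 12.5% lower, and of the 8894 deeper ones, a depth that all 46 members exceed, 17.3% were higher and 14% lower. Of the protein-coding genes at that depth, the class to which the rule restricts members, 14.1% were higher and 15.2% lower. The members' median vehicle level was 629 normalized counts, against 172 for these protein-coding genes, so the sets are not matched in level. Past 2-fold, 0 of 46 members were higher or lower, while 1.83% and 2.88% of the 13523 genes were, and 0.787% and 0.956% of the 8894.

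**Figure D1:**
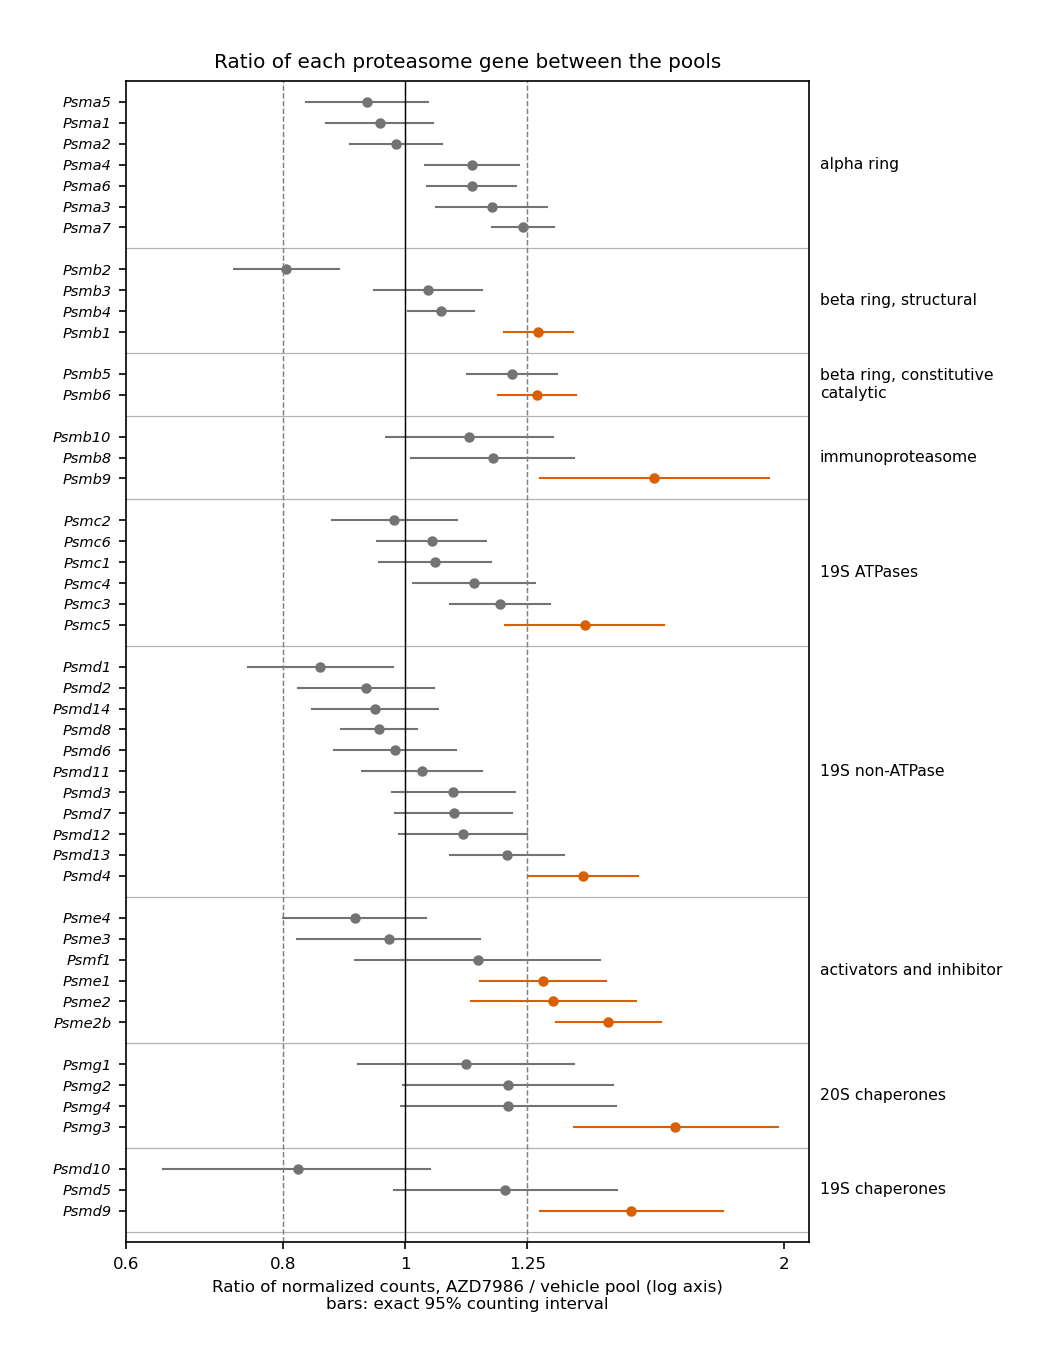
Ratio of normalized counts between the AZD7986 and the vehicle pool (log axis) for the 46 proteasome genes that reached a summed count of 20, grouped by role, with exact 95% counting intervals as bars. The solid line marks 1 and the dashed lines mark 20% lower and 25% higher. The 10 genes in orange are past the upper line with an interval above 1, and Psmb2 at 0.805 lies just inside the lower line.

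These counts depend on the scaling. With libraries scaled to equal totals, 6 members (13.0%) were higher and 2 (4.35%) lower, against 9.52% and 16.9% of the 13523 genes. With raw counts 3 members (6.52%) were higher and 9 (19.6%) lower, against 3.96% and 31.6%. The median of all genes moved by −0.08 and −0.27 on the log2 scale in the same steps. The 6 higher members were Psmb9, Psmc5, Psmd4, Psme2b, Psmg3 and Psmd9, and the 3 were Psmb9, Psmg3 and Psmd9. Scaling moves every gene by the same factor, so the distance of the members' median from that of all genes stays the same. Proteasome genes together gave 0.457% [0.453, 0.462] of all counts with vehicle and 0.484% [0.479, 0.489] with AZD7986.

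The alpha subunits form the outer rings of the core, and 0 of the 7 with enough counts were higher or lower. Their median log2 ratio was 0.18. Psma7, the most counted member of the family, had 2408 and 2476 counts, which gives 2192 and 2720 after normalization and a ratio of 1.24 [1.17, 1.31]. Psma6 had 1217 and 1139 counts, a ratio of 1.13 [1.04, 1.23], and Psma2 had 1221 and 995, a ratio of 0.984 [0.904, 1.07]. Psma3 and Psma4 had intervals just above 1, and those of Psma1 and Psma5 included 1. Psma8, known from the testis, had 8 counts in each pool.

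Ratios of the 4 structural subunits of the beta rings ran from 0.805 to 1.28, the widest range of any role within the core. Psmb1 was higher, with 1879 and 1986 counts and a ratio of 1.28 [1.20, 1.36]. Psmb4, the most counted of them, had 2320 and 2052 counts and a ratio of 1.07 [1.01, 1.13]. Psmb2 had 1062 and 708 counts and a ratio of 0.805 [0.731, 0.886], the lowest of the 46, which misses the limit of 0.8 narrowly. Psmb3 had a ratio of 1.04 [0.944, 1.15]. The subunits stand in equal number in a core, but their normalized counts did not. Among the 13 alpha and beta genes of the standard core with enough counts, vehicle levels ran from 665 (Psma5) to 2192 (Psma7), a 3.29-fold range. With AZD7986 they ran from 621 to 2720 between the same genes (4.38-fold).

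**Figure D2:**
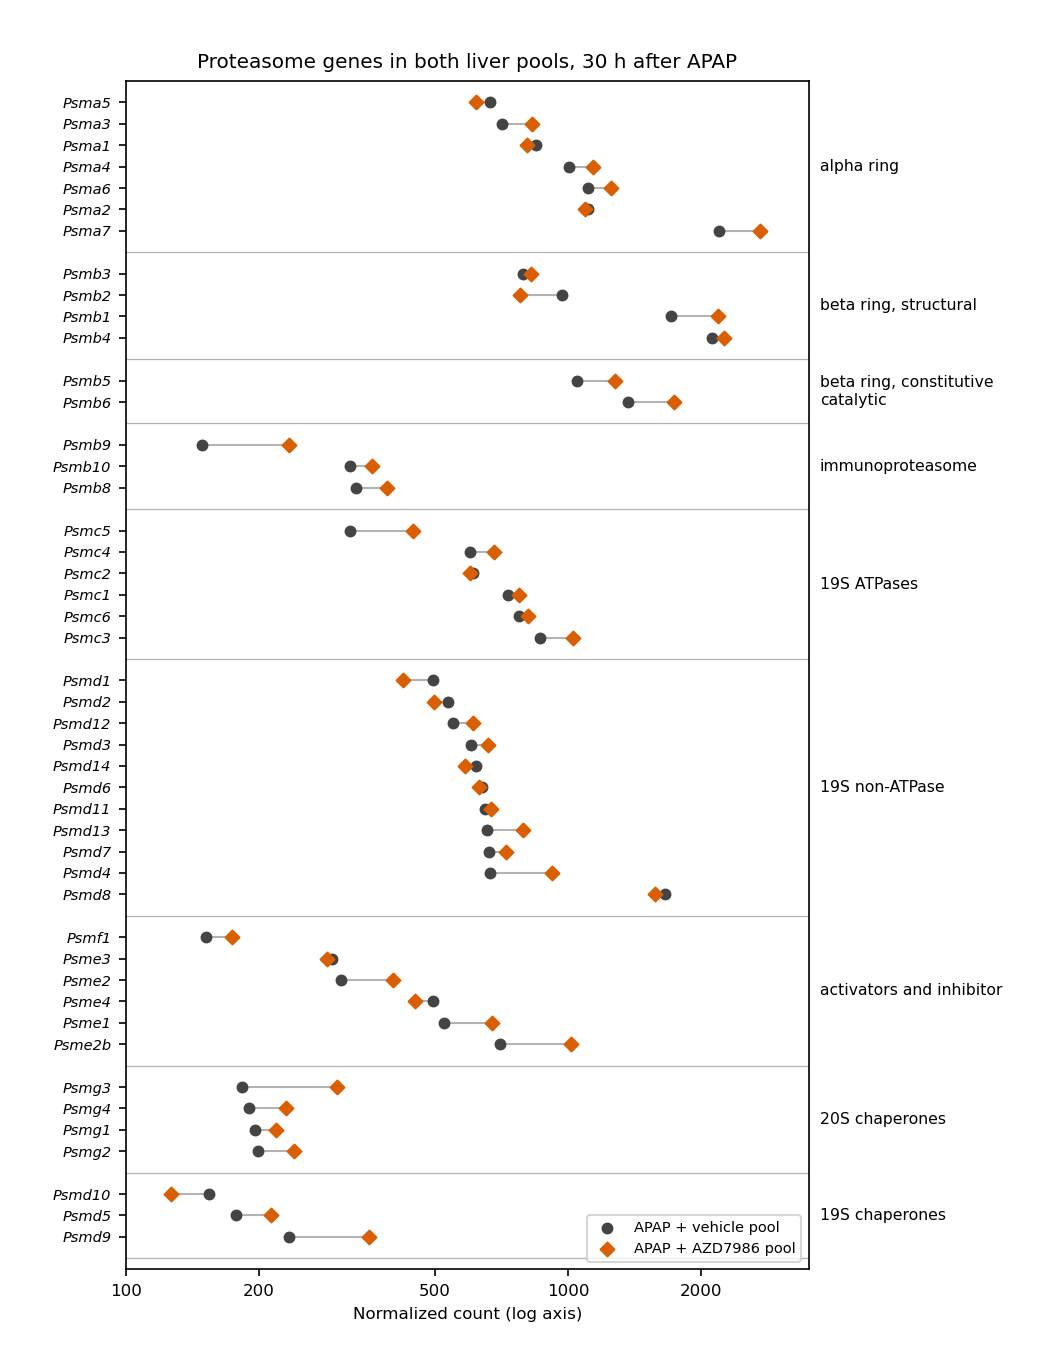
Normalized counts (log axis) of the 46 proteasome genes that reached a summed count of 20, for vehicle (grey circles) and AZD7986 (orange diamonds), 1 library each, grouped by role. Psma7, Psmb1 and Psmb4 are the most counted genes in both pools, the immunoproteasome genes reach at most 390 normalized counts (Psmb8), and the lowest value is that of Psmd10 with AZD7986 (126).

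Both well-counted catalytic subunits of the standard core had intervals above 1. Psmb5, which carries the chymotrypsin-like activity, had 1154 and 1162 counts (1050 and 1277 normalized), a ratio of 1.22 [1.12, 1.32]. Psmb6, which carries the caspase-like activity, had 1500 and 1582 counts (1365 and 1738 normalized), a ratio of 1.27 [1.19, 1.37], and was counted as higher. Psmb7, which carries the trypsin-like activity, had 6 and 3 counts only, although it is as much a part of the standard core as the other subunits. In the mouse annotation GENCODE M21, Psmb7 lies on the minus strand of chromosome 2 from 38588036 to 38644087. Its 3′ end is inside the gene Nek6 on the other strand, which runs from 38511643 to 38594606 and has an exon within 500 bases of that end. Nek6 had 401 and 248 counts. Whether this overlap set the low count of Psmb7 was not tested. The 3′ ends of 3 further members also meet an exon on the other strand. Of these, Psmc3ip, beside Mlx, had 6 and 10 counts, while Psmc3 had 950 and 936 and Psme1 575 and 613. The neighbour of Psme1 there, Emc9, had 63 and 78 counts, a ratio of 1.49 [1.06, 2.12].

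Promoters of Psmb5 and Psmb6 are shown because both genes carry, close to the start, the core of the antioxidant response element, the motif bound by NRF1 and NRF2. They were picked among the catalytic subunits after the matches were known. The letters searched were TGACNNNGC on both strands, over 250 bases before to 50 bases after each RefSeq start (GRCm38.p6). Capitals mark the match, whose first base lies 47 bases before the start in Psmb5 (chr14:54617946-54618245, minus strand) and 9 bases before it in Psmb6 (chr11:70525107-70525406, plus strand).
Psmb5: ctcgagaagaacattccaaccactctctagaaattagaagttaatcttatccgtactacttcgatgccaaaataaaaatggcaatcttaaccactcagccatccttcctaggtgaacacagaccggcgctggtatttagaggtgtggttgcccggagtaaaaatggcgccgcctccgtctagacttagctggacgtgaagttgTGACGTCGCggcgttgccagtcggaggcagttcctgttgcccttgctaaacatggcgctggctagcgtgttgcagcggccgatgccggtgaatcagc
Psmb6: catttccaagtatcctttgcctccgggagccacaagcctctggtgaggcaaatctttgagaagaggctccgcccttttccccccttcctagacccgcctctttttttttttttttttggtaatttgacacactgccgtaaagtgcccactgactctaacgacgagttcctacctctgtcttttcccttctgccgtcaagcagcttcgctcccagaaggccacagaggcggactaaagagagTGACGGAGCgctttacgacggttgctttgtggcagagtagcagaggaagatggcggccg

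Of the 42 members with a promoter in the RefSeq table, 6 held this motif (14.3%), and so did 14.0% of the 27025 genes with a promoter entry. The other 4 members with a match were Psmc6, Psmd12, Psmd9 and Psme4, whose ratios ran from 0.912 (Psme4) to 1.51 (Psmd9). A match is a run of letters and no evidence of binding. In all, 7 motifs were searched. The second form of the same element, TGAGNNNGC, was found in 13 of the 42 members (31.0%) and 19.8% of all genes with an entry. A CCAAT box, searched as CCAAT, was found in 15 members (35.7%) and in 41.1% of all. The heat shock element, GAA, TTC and GAA spaced by 2 bases each, was found in 0 members and 0.662% of all.

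The immunoproteasome subunits, which take the place of the catalytic subunits above, had ratios above 1. Psmb9, the counterpart of Psmb6, had 163 and 213 counts (148 and 234 normalized), a ratio of 1.58 [1.28, 1.95]. Psmb8, the counterpart of Psmb5, had 365 and 355 counts and a ratio of 1.17 [1.01, 1.36]. Psmb10, the counterpart of Psmb7, had 352 and 328 counts and a ratio of 1.12 [0.965, 1.31]. Of these 3, Psmb9 was counted as higher. Psmb11, the subunit of the thymus, had 1 count with vehicle and 0 with AZD7986, where a count of 0 allows up to 3 counts. Psmb8 and Psmb9 lie in the MHC region of chromosome 17 (34197721 to 34201454 and 34181987 to 34187764), on either side of the peptide transporter gene Tap1. Psmb9 overlaps the start of Tap1 on the other strand, and Tap1 had 134 and 129 counts, a ratio of 1.16 [0.905, 1.49].

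The share of immunoproteasome transcripts needs no scaling between libraries. Over all 3 catalytic sites it was 24.9% [23.4, 26.3] of counts with vehicle and 24.6% [23.2, 26.0] with AZD7986, with exact binomial intervals (odds ratio 0.986 [0.884, 1.10]). This sum holds Psmb10 with almost none of its counterpart Psmb7, so each remaining pair is given as well. Psmb9 made up 9.80% [8.41, 11.3] of the summed counts of Psmb9 and Psmb6 with vehicle and 11.9% [10.4, 13.5] with AZD7986. The odds ratio between the pools was 1.24 [0.993, 1.55], an interval that includes 1. Psmb8 made up 24.0% [21.9, 26.3] of Psmb8 and Psmb5 with vehicle and 23.4% [21.3, 25.6] with AZD7986 (odds ratio 0.966 [0.814, 1.15]). For both pairs summed, the shares were 16.6% and 17.1% and the odds ratio was 1.04 [0.912, 1.19]. A shift toward either form was not detectable at this depth within that interval.

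**Figure D3:**
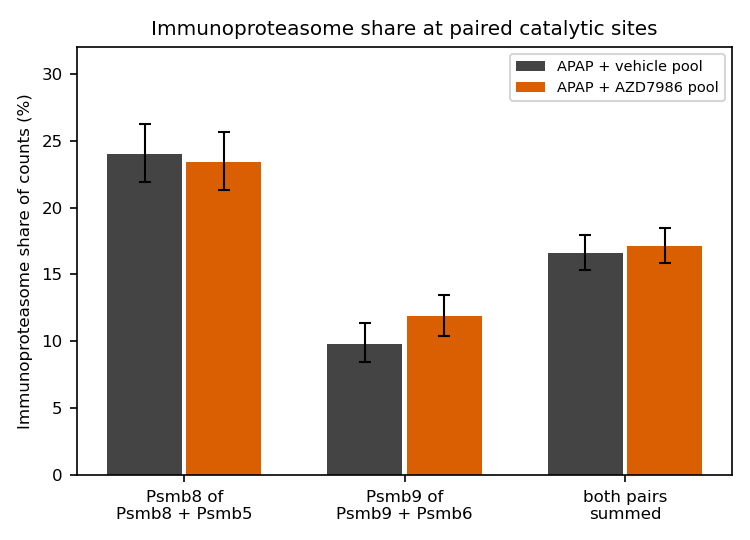
Share of immunoproteasome counts (%) at 2 catalytic sites and over both, for vehicle (dark grey) and AZD7986 (orange), with exact 95% binomial intervals as error bars. The intervals overlap for Psmb8 (24.0% and 23.4%), for Psmb9 (9.80% and 11.9%) and for both pairs summed (16.6% and 17.1%).

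Leukocyte markers were for the most part lower. Of 12 pan-leukocyte markers, 7 (58.3%) were lower and 0 higher, with a median log2 ratio of −0.44. Of the 13523 genes, 12.5% were lower and 13.4% higher. Their summed normalized counts were 3199 with vehicle and 2500 with AZD7986. The CD45 gene Ptprc, which defines leukocytes, had 124 and 61 counts (0.594 [0.430, 0.813]). Hepatocyte markers had a median of 0.13, with 2 of 11 (18.2%) higher and 1 (9.09%) lower, near the shares of all genes. Their summed normalized counts were 668727 with vehicle and 665612 with AZD7986. The part of either cell type in the immunoproteasome counts was not tested.

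The PA28 activator genes were higher, though of these Psme2b alone was so with libraries scaled to equal totals, and the other activators were not. PA28 is a ring of the products of Psme1 and Psme2 that opens the core without ubiquitin or ATP. Psme1 had 575 and 613 counts (523 and 673 normalized), a ratio of 1.29 [1.15, 1.44]. Psme2 had 336 and 365 counts and a ratio of 1.31 [1.13, 1.53]. Psme2b, an intronless copy of Psme2 on chromosome 11, had 769 and 924 counts and a ratio of 1.45 [1.32, 1.60], the largest of the 3. The longest transcripts of Psme2 and Psme2b align over 794 bases with 5 mismatches and share a stretch of 341 identical bases, so that reads of 3′ tags may be assigned to either, and their separate values are uncertain. Taken as 1 gene, they had a ratio of 1.41 [1.30, 1.53]. Psme2b took 69.6% [66.8, 72.3] of their counts with vehicle and 71.7% [69.1, 74.1] with AZD7986. Psme3, which encodes the nuclear PA28γ, had 322 and 259 counts (0.971 [0.821, 1.15]). Psme4, which encodes the activator PA200, had 544 and 411 counts (0.912 [0.800, 1.04]). Psmf1, which encodes the core-binding protein PI31, had 167 and 158 counts (1.14 [0.913, 1.43]).

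Promoters of Psme1 and Psmb8 are shown for letters of interferon-responsive motifs, since both genes are known to respond to interferon-γ. They too were picked after their matches were known. In Psme1 (chr14:55578244-55578543, plus strand), capitals mark a match on the minus strand to GAAA and GAAA spaced by 2 bases, the core of the interferon-stimulated response element, with its first base 9 bases downstream of the start. In Psmb8 (chr17:34197945-34198244, plus strand), capitals mark TTCNNNGAA, the interferon-γ-activated site, beginning 97 bases before the start. Both positions refer to the RefSeq start. In GENCODE M21 the genes begin earlier, at 55578123 (Psme1) and 34197721 (Psmb8), so both printed windows lie inside the genes as annotated there.
Psme1: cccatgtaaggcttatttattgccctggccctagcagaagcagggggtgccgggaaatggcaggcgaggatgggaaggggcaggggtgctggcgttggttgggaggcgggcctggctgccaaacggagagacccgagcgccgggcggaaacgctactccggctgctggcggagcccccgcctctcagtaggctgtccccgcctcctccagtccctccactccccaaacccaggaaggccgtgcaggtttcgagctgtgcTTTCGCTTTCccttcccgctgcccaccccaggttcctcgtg
Psmb8: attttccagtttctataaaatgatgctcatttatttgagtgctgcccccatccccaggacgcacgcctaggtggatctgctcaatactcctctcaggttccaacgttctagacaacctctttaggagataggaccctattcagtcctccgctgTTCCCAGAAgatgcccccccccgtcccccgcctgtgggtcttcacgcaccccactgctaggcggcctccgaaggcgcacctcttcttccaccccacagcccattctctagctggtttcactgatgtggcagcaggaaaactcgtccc

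The interferon-stimulated element was found on either strand in 5 of the 42 member promoters (11.9%), against 3.99% of all genes with an entry. These were Psmb3, Psmd4, Psmd9, Psme1 and Psmg4, whose ratios ran from 1.04 (Psmb3) to 1.51 (Psmd9). TTCNNNGAA was found in 3 of 42, Psmb8, Psmd2 and Psmg1 (7.14%, against 9.55% of all genes with an entry). A related site of interferon regulatory factors, TTCACTTTC, was found in Psmb3 and Psmg4 (4.76%, against 0.677%), 2 genes that also hold the element above. These shares rest on few matches.

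The ATPases of the 19S particle form the ring that unfolds substrates. Psmc5 was higher, with 352 and 405 counts and a ratio of 1.39 [1.20, 1.61]. It was the 1 higher gene of the 6. Psmc3, the most counted, had a ratio of 1.19 [1.09, 1.30], and Psmc6 had 851 and 740 counts and a ratio of 1.05 [0.950, 1.16]. The remaining 3 lay between 0.980 (Psmc2) and 1.13 (Psmc4).

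Non-ATPase subunits of the 19S particle lay closest to the median gene, with a median log2 ratio of 0.04 over 11 genes. Psmd4, a receptor for ubiquitin chains, was the 1 higher gene among them, with 730 and 838 counts (664 and 921 normalized), a ratio of 1.39 [1.253, 1.53]. Psmd8 was the most counted, with 1818 and 1435 counts (0.953 [0.888, 1.02]). Psmd1, one of the large scaffold subunits, had 544 and 386 counts (0.856 [0.750, 0.977]) and Psmd2, the other, 589 and 454 (0.930 [0.821, 1.05]). The deubiquitinase gene Psmd14 had 680 and 533 counts (0.946 [0.843, 1.06]). The remaining 6, which included Psmd13 with 722 and 721 counts, ranged from 0.982 (Psmd6) to 1.21 (Psmd13). Over all 17 genes of the particle the median log2 ratio was 0.08, and over the 16 genes of the core with enough counts it was 0.18. Levels in the particle ran from 320 (Psmc5) to 1655 (Psmd8) with vehicle, a 5.16-fold range, and from 424 (Psmd1) to 1576 (Psmd8) with AZD7986 (3.72-fold).

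Assembly chaperones had the lowest median counts of the roles, and they held the gene with the highest ratio. Psmg3, a chaperone of alpha ring assembly, had 201 and 273 counts (183 and 299.9 normalized), a ratio of 1.64 [1.36, 1.98]. Its partner in the same complex, Psmg4, had 209 counts in each pool (1.21 [0.992, 1.47]). Psmg2 likewise had 218 in each (1.21 [0.996, 1.46]) and Psmg1 215 and 199 (1.12 [0.917, 1.36]). Among chaperones of the 19S base, Psmd9 had 257 and 322 counts and a ratio of 1.51 [1.28, 1.79]. Psmd5 had 195 and 194 counts (1.20 [0.979, 1.47]), and Psmd10, also known as gankyrin, 169 and 115 (0.821 [0.642, 1.05]). The gene Hpd, an enzyme of tyrosine breakdown, lies inside Psmd9 on the other strand of chromosome 5 (123171807 to 123182727). It had 3661 and 5500 counts, a ratio of 1.81 [1.74, 1.89], and its part in the count of Psmd9 was not tested. Psmg3 is overlapped by the predicted gene Gm26938 on the same strand. Without the members that another annotated gene overlaps, 24 were left with enough counts and a median log2 ratio of 0.09, and 4 of these (16.7%) were higher (Psmb1, Psmb6, Psmd4 and Psme2). Psmc3ip, which matches the name rule but encodes a recombination factor of meiosis, had 6 and 10 counts.

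Lists of proteasome partners and of the wider ubiquitin system had medians from −0.13 to 0.04. Their counts of higher and lower genes stand beside 13.4% higher and 12.5% lower of the 13523 genes. Of 13 further proteasome parts and partners, 2 were higher and 2 lower (15.4% each, median −0.06). Pomp, the maturation factor of the core and the most counted, had 1528 and 1737 counts (1.37 [1.28, 1.47]), Sem1, a small 19S subunit, 1507 and 1475 (1.18 [1.10, 1.27]), and the thioredoxin-like Txnl1 1316 and 1043 (0.957 [0.881, 1.04]). Ecpas, the scaffold ECM29, had a ratio of 1.26 [1.05, 1.50], and Akirin2, a factor for nuclear import of proteasomes, and Ubfd1 were lower at 0.726 [0.543, 0.965] and 0.789 [0.647, 0.960]. In the pathway of NRF1, 1 of 9 genes was higher and 1 lower (11.1% each, median −0.05). Nfe2l1 itself had 337 and 287 counts (1.03 [0.875, 1.21]). Ddi2, the protease that activates NRF1, had 529 and 303 (0.691 [0.598, 0.798]), Mafg, a small Maf partner, 264 and 281 (1.28 [1.08, 1.53]), and the segregase gene Vcp 1587 and 1366 (1.04 [0.966, 1.12]).

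Of 13 genes for ubiquitin and its enzymes, 0 were higher and 1 (7.69%) lower, with a median of −0.13. The polyubiquitin gene Ubb had 3533 and 2480 counts (0.847 [0.804, 0.892]), Rps27a, which encodes ubiquitin fused to a ribosomal protein, was at 0.999 [0.933, 1.07], and Uba1, the main ubiquitin-activating enzyme, was lower at 0.732 [0.644, 0.831]. Among 14 ubiquitin receptors and p97 cofactors, 1 (7.14%) was higher and 2 (14.3%) were lower, with a median of 0.04. Ubqln1, a shuttle to the proteasome, had a ratio of 1.30 [1.16, 1.47], its relative Ubqln2 was at 0.780 [0.620, 0.979] and the p97 cofactor Nsfl1c at 0.767 [0.623, 0.941]. The autophagy receptor Sqstm1 had 2099 and 1737 counts (0.999 [0.937, 1.06]) and, after Vcp given above, the shuttle Rad23b 1032 and 909 (1.06 [0.971, 1.16]).

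Of the genes that act with the immunoproteasome, most were neither higher nor lower, as were 10018 of the 13523 genes. In class I antigen processing, 1 of 11 (9.09%) was higher and 0 lower (median 0.02), against 13.4% and 12.5% of the 13523 genes. B2m, the light chain of class I molecules, had 11440 and 9611 counts (1.01 [0.987, 1.04]), the chaperone Calr 8938 and 7337 (0.991 [0.960, 1.02]), H2-K1, a heavy chain, 5460 and 3742 (0.827 [0.793, 0.862]), the disulfide isomerase Pdia3 2044 and 1867 (1.10 [1.03, 1.17]) and the peptide editor Tapbpl 102 and 123 (1.46 [1.11, 1.91]). The median of the 16 genes of interferon-γ signalling was −0.22, with 1 (6.25%) higher and 3 (18.8%) lower. Jak1 had 564 and 330 counts (0.706 [0.615, 0.810]), the receptor chain Ifngr1 262 and 148 (0.682 [0.554, 0.837]), and the induced GTPases Irgm1 263 and 212 (0.973 [0.808, 1.17]) and Igtp 208 and 118 (0.685 [0.542, 0.862]). The chemokine gene Cxcl9 was the 1 higher gene, with 46 and 67 counts (1.76 [1.19, 2.62]), and the Ifng transcript had 1 count in each pool.

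**Figure D4:**
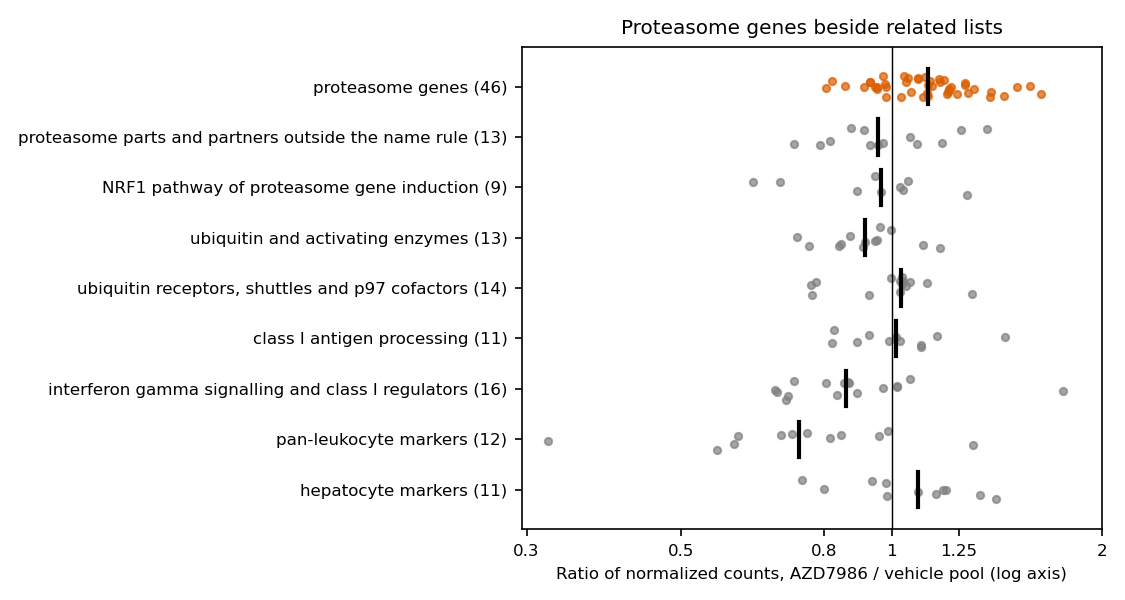
Ratio of normalized counts between the pools (log axis) for each gene that reached a summed count of 20, by list, with the number of genes in brackets and the median as a black bar. The proteasome genes (orange) have the highest median log2 ratio of the lists shown (0.17), and pan-leukocyte markers the lowest (−0.44).

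Transcript length went with the ratio among proteasome genes about as much as among genes in general. Over the 46 members, Spearman's rho between the ratio and the length of the longest annotated coding transcript was −0.31, and over 7770 protein-coding genes that reached a summed count of 100 it was −0.30. Between the ratio and the summed count, rho was −0.07 over the members and 0.25 over the same 7770 genes. These are descriptions across genes of the same 2 libraries, and genes are not independent replicates. The 23 members with transcripts under 1500 bases, a split chosen with results known, had a median log2 ratio of 0.18, and the other 23 had 0.13. Among all protein-coding genes at that depth, those under 1500 bases had a median of 0.15 and longer ones −0.05. The part of length or of level in the members' ratios was not tested.

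Of the 4 proteasome pseudogenes, 2 were counted more than a few times. Psmb6-ps2 had 108 and 152 counts (1.70 [1.32, 2.19]) and Psma5-ps 133 and 79 (0.717 [0.536, 0.954]), and Psmb5-ps had 3 in each pool. Psma5-ps aligns with Psma5 over 952 bases at 98.6% identity, and Psmb6-ps2 with Psmb6 over 265 bases at 96.2%. The longest identical stretch is 248 bases for Psma5-ps and 65 bases for Psmb6-ps2. Reads of a gene and such a copy can be assigned to either, which makes the values of Psma5 and Psmb6 less certain than their intervals.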

How the data were processed

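Liver RNA was pooled per group by the authors, and each pool gave 1 library of 3′ mRNA sequencing (MACE). Groups were taken from the sample titles, since the labels give both samples the same treatment text. The methods name the Rapid MACE-Seq kit, the labels MACE-kit v.2. Duplicates were removed through molecular identifiers, low-quality bases were removed with cutadapt and poly(A) tails were clipped before mapping to mm10, and the authors deposited raw counts per gene from HTSeq. The sources used here do not give the aligner, nor the annotation release and strand setting of the counting. Columns of scaled values were not used, and 6 columns whose names match neither sample were left out. Rows without a symbol held 3.70% and 3.71% of counts and were kept.

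DESeq2 1.42.0 (R 4.3.3) gave the size factors, and a count of 0 was set to 1 for ratios. Ratios and Clopper-Pearson intervals from the binomial split of each gene's summed count were computed with scipy 1.17.1 and pandas 2.3.3, figures with matplotlib 3.10.9, and odds ratios with Fisher's conditional interval. Intervals cover counting error only. The method was tested on simulated counts that held counting error alone, so variation between mice or libraries was not tested. Positions come from GENCODE M21, in which all 50 members were found, and promoters from RefSeq (GRCm38.p6, 42 of 50 members). Alternatives were TMM (edgeR 4.0.16), library-total or no scaling, other count minimums, a stricter interval and other sets of members. Members in full are those past 1.25-fold with an interval that excludes 1, the immunoproteasome and PA28 genes with their counterparts, and the 2 most counted of each role, and in each further list the 3 most counted and the 3 with the largest such change. Some genes that this rule picks are not reported here. Genes named beyond this rule were chosen after their values were seen. The members, lists and motifs were chosen with earlier results of these data known.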

Additional observations from a re-analysis of the deposited data

How the results depend on the processing

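Each group has 1 library, so no value here has a replicate check. No paired analysis was possible because there are no replicates. TMM scaling changed none of the member counts, and 46 of 46 ratios stayed within their intervals under TMM and under library-total scaling. With no scaling, 39 of the 46 left their intervals. A scaling shifts all ratios together, so these are not 46 separate checks. Library-total scaling gave 6 higher and 2 lower members, in place of 10 and 0, against 9.52% and 16.9% of all genes. Without scaling, the median log2 ratio was −0.10, a reversed sign, with 3 higher and 9 lower members, against 3.96% and 31.6% of all genes, whose median was −0.29. Both shifts follow from the construction of the scaling, which moves every ratio by the same factor. Among the 33 subunits of the core and the 19S particle alone, 5 members (15.2%) were higher and the median was 0.13. Without overlapped members, 4 of 24 (16.7%) were higher and the median was 0.09. Both shares lie below the 21.7% of all 46, and the cause was not tested. Leaving out overlapped members was chosen after seeing the data, as was leaving out genes with a copy in the table (7 of 41 higher, 17.1%). Of the 8894 deeper genes, 17.3% were higher, and of the protein-coding ones 14.1%. The 15.2%, 16.7% and 17.1% of the member subsets lie between these values, so an excess of higher genes is not apparent in them. In each subset 0 members were lower, against 14.0% and 15.2% of those genes. Level was not matched in this comparison. The counts of higher and lower members were 10 and 0 in each of 3 further settings, in which the shares of all genes differed. These shares were 7.78% higher and 7.24% lower with no count minimum, 17.3% and 14.0% with a minimum of 100, and 8.08% and 4.75% with a stricter interval. Low counts widen an interval, and each of the 46 members had a summed count of at least 284. The shares of all genes in these settings are therefore not matched to the members in depth. The immunoproteasome share over all 3 catalytic sites was 24.9% (vehicle) and 24.6% (AZD7986), and without Psmb10 and Psmb7 it was 16.6% and 17.1%. Proteasome genes made up 0.549% and 0.584% of protein-coding counts, and 0.504% and 0.525% of counts outside the mitochondrial genome. Among the 46 members, an interval reached at the median 0.16 on the log2 scale to either side, which limits what this depth resolves.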
